A study of Mus musculus with 4 samples.

Results

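The 10 genes described here, Atf4, Ddit3, Asns, Slc7a5, Slc3a2, Trib3, Chac1, Sesn2, Psat1 and Phgdh, belong to the integrated stress response and to the supply of amino acids. They were taken by name from the 17746 gene symbols of the deposited expression table, which held all 10. RNA sequencing was done on 2 GFP-negative and 2 GFP-positive libraries of tumour cells sorted from lungs of RPΔG mice. These mice have floxed alleles of both tumour suppressors, Rb1fl/fl and Trp53fl/fl, and a knocked-in GFP-LC3-RFP-LC3ΔG probe, so both groups share the model of small cell lung cancer and the reporter. DAPI-negative cells positive for EpCAM and RFP were divided by GFP. Autophagy degrades the GFP-LC3 part of the probe while the RFP part stays in the cytosol. The design text gives high autophagic flux to the GFP-negative cells and the sample titles give it to the GFP-positive cells, so the groups are named by GFP alone and no direction is drawn for flux. How Cre was delivered, the number and age of the animals, and the source animal of each library are not given in the labels used here. A p-value here thus sets the group difference against a spread between these 4 libraries that is moderated across genes and may be technical.

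The integrated stress response begins when a kinase phosphorylates the translation factor eIF2. General translation falls, while the mRNA of the transcription factor ATF4 is translated more, so ATF4 is regulated to a large part at translation and its mRNA level is not its protein level. With C/EBP family partners ATF4 binds a composite DNA element and induces genes that import amino acids, make serine and asparagine, charge tRNAs and break down glutathione. Autophagy also supplies amino acids, and ATF4 is known to induce several autophagy genes.

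Libraries held 73997175 and 69676412 counts in the GFP-negative group and 51994432 and 67536465 in the GFP-positive group. GFP-positive replicate 1 stood apart, with 0 counts for 65.8% of the symbols, against 0.727% to 11.5% in the other 3 libraries. The sort marker and its epithelial companions were present in all 4 libraries: 7 epithelial markers summed to 2841 and 795 CPM in GFP-negative and 1328 and 466 CPM in GFP-positive libraries, with none at 0 counts, although Cdh1 and Cldn3 had 4 counts in GFP-positive replicate 1. CPM are counts divided by the TMM-scaled library size, per 1e6, with replicate 1 before replicate 2 throughout. Neuroendocrine markers, which define this tumour, summed to 5195 and 2013 CPM in GFP-negative and 3462 and 1271 CPM in GFP-positive libraries, and 2 of the 10, Chga and Chgb, were at 0 counts in GFP-positive replicate 1. The 11 macrophage markers in the table, none at 0 counts in any library, summed to 1043 and 14901 CPM in GFP-negative and 111018 and 40690.4 CPM in GFP-positive libraries. The 6 erythroid markers summed to 1573 and 5395 CPM in GFP-negative and 45562 and 14336 CPM in GFP-positive libraries. The 4 hepatocyte markers in the table summed to 23.5 and 319 CPM in GFP-negative and 27262 and 159 CPM in GFP-positive libraries. Outside GFP-positive replicate 1 that sum was mostly Ttr, at 23 and 318 CPM in GFP-negative libraries and 155 CPM in GFP-positive replicate 2. In those libraries Alb, Apoa2 and Cyp2e1 stayed at or below 3.09 CPM. The 5 alveolar type 2 markers in the table summed to 95.7 and 2400.1 CPM in GFP-negative and 147 and 195 CPM in GFP-positive libraries. The 8 B and plasma cell markers summed to 963 and 2059.9 CPM in GFP-negative and 0.213 and 1403 CPM in GFP-positive libraries. The highest sums of the T and NK cell and fibroblast lists were 123 and 76.6 CPM, both in GFP-positive replicate 2. The 5 endothelial markers in the table summed to 94.6 and 30.9 CPM in GFP-negative and 396 and 5.19 CPM in GFP-positive libraries. The peak in GFP-positive replicate 1 was Pecam1, at 396 CPM. Kdr, Vwf and Emcn went the other way, with 0 counts in both GFP-positive libraries and counts in both GFP-negative libraries. Fewer cells of a type and less RNA per cell cannot be told apart in such bulk samples.

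No gene of the 10 passed the test of GFP-negative against GFP-positive. With a Benjamini-Hochberg adjusted p of 0.05 as the threshold, the quasi-likelihood fit of edgeR called 0 of 10, where it called 0.0982% of the 16301 genes tested, and 0 of 10 had an unadjusted p below 0.05, against 3.1% of genes. DESeq2's Wald test also called 0 of 10, beside 0.279% of genes, with 0 at an unadjusted p below 0.05. With limma-voom 0 of 10 were called as well, beside 0.0245% of genes, and 1 had an unadjusted p below 0.05. The fitted log2 change was above 0 for 7 of 10, beside 68.1% of all tested genes, with a median of 1.43 beside 0.91. Without GFP-positive replicate 1 these medians were 0.42 and 0.29. Neither the count above 0 nor the median set the 10 genes far apart from the table.

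The GFP-negative libraries both lay above both GFP-positive libraries for 4 genes, Asns, Trib3, Psat1 and Phgdh, beside 25.2% of tested genes. These 4 stayed above when libraries were scaled by their totals (31.1% of genes above), by DESeq2 size factors (28.5%), by the upper quartile (23.1%) or as FPKM, the deposited values scaled by gene length and depth (31.6%). In GFP-positive replicate 1, Asns, Trib3 and Phgdh were at 0 counts, which no scaling can change, and Psat1 was at 4. Scaling could thus alter mainly the order against GFP-positive replicate 2. There the nearer GFP-negative library was at 82.1 against 74.9 CPM for Asns and 14.9 against 12 CPM for Trib3. Both GFP-negative libraries lay below for Atf4 and Slc3a2, beside 6.63% of tested genes, so that 6 of 10 genes did not overlap, beside 31.8%. That order depended on scaling: with library totals the groups overlapped for both genes (4.53% of genes below), and on the FPKM scale, also at 4.53%, they overlapped for Atf4. Both stayed below with DESeq2 size factors (5.69%) and the upper quartile (8.72%). The upper quartile also moved the fitted log2 change of other genes far down, as from -0.60 to -7.04 for Slc7a6 and from -1.59 to -8.08 for Arpc2. Its order is therefore a weak check for Atf4 and Slc3a2. Ddit3, Slc7a5, Chac1 and Sesn2 overlapped under all 5 scalings.

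**Figure D1:**
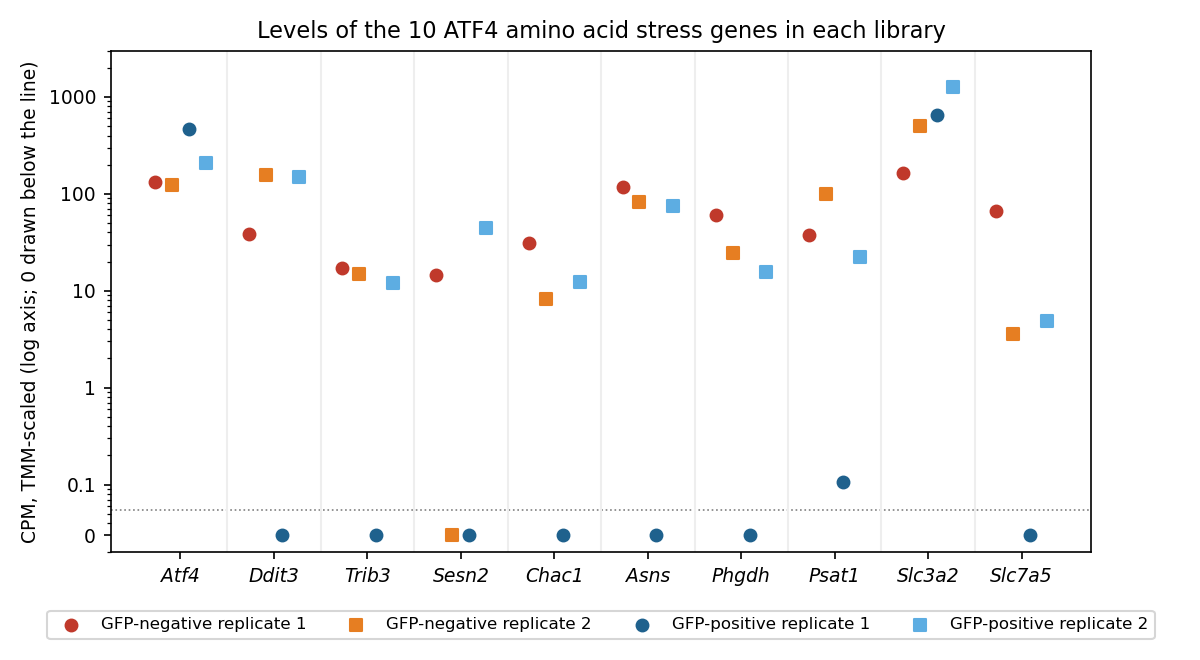
TMM-scaled CPM of the 10 genes on a log axis, 1 point per library, with libraries at 0 counts drawn below the dotted line. GFP-positive replicate 1 is at 0 for 7 of the 10 genes while its Atf4 and Slc3a2 stand at 465 and 658 CPM.

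Atf4 (chromosome 15, 80255184 to 80257541, plus strand, mm10), which encodes the transcription factor at the centre of the response, had 134 and 124 CPM in GFP-negative libraries, against 465 and 208 CPM in GFP-positive libraries. The GFP-negative values differed by 1.07-fold and the GFP-positive values by 2.23-fold. Its log2 change was -1.38 ± 1.97 (SE from the edgeR fit with 2 libraries a group, and an edgeR adjusted p of 1.0). Leaving out GFP-positive replicate 1 gave -0.70. Per length it was among the more abundant genes of every library, above 95.5% and 90.2% of the detected symbols in GFP-negative and 91.0% and 94.6% in GFP-positive libraries.

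Ddit3 (chromosome 10, 127290829 to 127293753, plus strand) encodes CHOP, a factor induced by ATF4 that is known for promoting cell death under lasting stress. It had 38.1 and 158 CPM in GFP-negative libraries, against 0 and 151 CPM in GFP-positive libraries. Replicate 2 of both groups stood close together and GFP-negative replicate 1 lay 4.16-fold below GFP-negative replicate 2. Ddit3 had a log2 change of 0.38 ± 2.77 (edgeR adjusted p = 1.0). It changed sign to -0.62 without GFP-positive replicate 1 and to -1 without GFP-negative replicate 2.

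Trib3 (chromosome 2, 152337422 to 152344032, minus strand), a pseudokinase induced by ATF4 and CHOP that restrains AKT and ATF4 itself, had 17.3 and 14.9 CPM in GFP-negative libraries, against 0 and 12 CPM in GFP-positive libraries. The 3 libraries with counts lay close together, and the log2 change of 1.42 ± 4.49 (edgeR adjusted p = 1.0) was 0.42 without GFP-positive replicate 1.

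Sesn2 (chromosome 4, 132492032 to 132510501, minus strand) encodes sestrin 2, which binds leucine and restrains mTORC1 through GATOR2. It had 14.4 and 0 CPM in GFP-negative libraries, against 0 and 44.4 CPM in GFP-positive libraries. Each group thus held 1 library with many reads and 1 with none, as the counts were 1636 and 0 in GFP-negative and 0 and 2829 in GFP-positive libraries. With 3 counts as the limit of a library at 0, it was at least 320-fold lower in GFP-negative replicate 2 than in replicate 1 and at least 555-fold lower in GFP-positive replicate 1 than in replicate 2, for counting error only. Over all 4 libraries its log2 change was -1.62 ± 4.45 (edgeR adjusted p = 1.0), and left-out libraries moved it between -13.28 and 12.03.

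Chac1 (chromosome 2, 119351229 to 119354381, plus strand), an enzyme that cleaves glutathione, had 31.1 and 8.19 CPM in GFP-negative libraries, against 0 and 12.2 CPM in GFP-positive libraries. GFP-negative replicate 1 was the highest and the other group's replicate 2 stood above GFP-negative replicate 2. A log2 change of 1.69 ± 4.49 (edgeR adjusted p = 1.0) was fitted, or 0.68 with GFP-positive replicate 1 left out.

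Asns (chromosome 6, 7675169 to 7693254, minus strand), which makes asparagine from aspartate and glutamine, had 119 and 82.1 CPM in GFP-negative libraries, against 0 and 74.9 CPM in GFP-positive libraries. GFP-negative replicate 2 and GFP-positive replicate 2 nearly coincided, while GFP-positive replicate 1 was at least 937-fold below its partner. For Asns the log2 change came to 1.43 ± 3.10 (edgeR adjusted p = 1.0), or 0.42 with GFP-positive replicate 1 left out.

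The promoters of Asns, Chac1 and Trib3 held the core of the ATF4 element. Promoter windows of 250 bases before to 50 after the start were available in RefSeq (GRCm38.p6) for 9 of the 10 genes, and both strands were searched for TGATGNAA, the core shared by C/EBP-ATF response elements. It occurred in 3 of 9 genes, beside 4.51% of 27025 genes in the same table. For Slc3a2 and Psat1 the RefSeq windows lay inside the gene as positioned here. The Slc3a2 window ended at 8714147, against an annotated start at 8723369. For Psat1 the nearer window ended at 15925309, against 15947337. The bases before those annotated starts were thus not searched, and these genes cannot be said to lack the core there. The endoplasmic reticulum stress response element (ERSE) occurred in 0 of 9, beside 0.137%, and did not overlap the core. The matches are shown because they are the known binding motif of the factor for which the 10 genes are named. Each is given with its flanks on the gene's own strand, with the core in capitals (TTGCATCA and TTACATCA are the core read on the other strand), at chr6:7693214-7693243, chr2:119351038-119351067 and chr2:152344028-152344057 in the order listed.

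Asns: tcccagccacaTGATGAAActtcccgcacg

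Chac1: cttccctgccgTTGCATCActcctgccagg

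Trib3: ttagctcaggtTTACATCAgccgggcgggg

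The Asns match began 23 bases before the RefSeq start, that of Chac1 193 bases before it and that of Trib3 14 bases after it. Around the Chac1 match the promoter up to the annotated start (chr2:119350992-119351228, plus strand, 237 bases) reads as follows, again with the core in capitals.

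Chac1 promoter: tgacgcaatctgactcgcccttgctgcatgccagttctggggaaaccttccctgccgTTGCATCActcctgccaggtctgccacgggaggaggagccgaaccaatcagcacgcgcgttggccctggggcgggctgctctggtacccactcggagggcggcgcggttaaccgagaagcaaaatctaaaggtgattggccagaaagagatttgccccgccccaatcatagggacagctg

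A match describes these letters only. Of the 3 genes with the core, Asns and Trib3 were above in both GFP-negative libraries and Chac1 was not. Among all genes described here 4 were above, beside 25.2% of tested genes. All 3 genes with the core were at 0 counts in GFP-positive replicate 1. So were 7 of all genes described here and 65.8% of the symbols. With 3 genes, these counts cannot tell whether the core goes with either pattern.

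Phgdh and Psat1, the enzymes of the opening steps of serine synthesis, were both higher in each GFP-negative library than in either GFP-positive library, without passing the test. Phgdh (chromosome 3, 98313170 to 98339990, minus strand), which takes 3-phosphoglycerate out of glycolysis, had 60.4 and 24.7 CPM in GFP-negative libraries, against 0 and 15.5 CPM in GFP-positive libraries. Its log2 change was 2.46 ± 4.32 (edgeR adjusted p = 1.0), or 1.45 with GFP-positive replicate 1 left out.

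Psat1 (chromosome 19, 15904678 to 15947337, minus strand), the aminotransferase of the next step, had 37.2 and 99.3 CPM in GFP-negative libraries, against 0.107 and 22.2 CPM in GFP-positive libraries. The value of 0.107 CPM stands for 4 counts. GFP-negative replicate 2 was the highest here, whereas GFP-negative replicate 1 was the highest for Phgdh. Psat1 had a log2 change of 2.61 ± 3.93 (edgeR adjusted p = 1.0), or 1.61 with GFP-positive replicate 1 left out. The neuroendocrine markers had a median log2 change of 1.76, and the part of tumour cell content in Asns, Phgdh and Psat1 was not tested. Psph, the phosphatase that completes the pathway, had 15.7 and 42.8 CPM in GFP-negative libraries, against 0 and 25.7 CPM in GFP-positive libraries, and its groups overlapped. Psph had a log2 change of 1.18 ± 4.26 (edgeR adjusted p = 1.0), or 0.18 with GFP-positive replicate 1 left out. Summed over the 3 enzymes, the level was 49.6 and 35.8 FPKM in GFP-negative and 0.0162 and 14.1 FPKM in GFP-positive libraries.

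Slc3a2 and Slc7a5 encode the chains of the leucine importer LAT1, and their values ran apart. Slc3a2 (chromosome 19, 8706882 to 8723369, minus strand), the heavy chain CD98 that carries several light chains to the cell surface, had 164 and 506 CPM in GFP-negative libraries, against 658 and 1275 CPM in GFP-positive libraries. It had counts in every library, and replicate 2 was the higher library of both groups. With -1.53 ± 1.39 on the log2 scale (edgeR adjusted p = 1.0) it had the smallest SE among the 10 genes, and leaving out GFP-positive replicate 1 gave -1.93.

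Slc7a5 (chromosome 8, 121881150 to 121907694, minus strand), the light chain that moves leucine and other large neutral amino acids, had 66.0 and 3.59 CPM in GFP-negative libraries, against 0 and 4.85 CPM in GFP-positive libraries. A single library was high: GFP-negative replicate 1 stood 18.4-fold above replicate 2 of its group. Slc7a5 had a log2 change of 3.84 ± 4.77 (edgeR adjusted p = 1.0), which was 0.56 without that library and 2.83 without GFP-positive replicate 1.

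Light chains that share the heavy chain were set beside it per length. Slc7a6 had 27.2 and 15.3 FPKM in GFP-negative and 26.5 and 14.3 FPKM in GFP-positive libraries, the only light chain of the 5 looked up (Slc7a5, Slc7a6, Slc7a7, Slc7a8 and Slc7a11) with more than 10 FPKM in all 4. Slc7a7 stood out in GFP-positive replicate 2, with 1.83 and 1.11 FPKM in GFP-negative and 0 and 20.3 FPKM in GFP-positive libraries. Slc7a8 and Slc7a11, the cystine importer xCT, stayed at or below 2.09 FPKM. The 5 light chains together came to 85.7% and 14.9% of the heavy chain's FPKM in GFP-negative libraries, against 22% and 13.4% in GFP-positive libraries. Slc7a5 made up 44.6% and 4.53% of that sum in GFP-negative libraries and 0% and 2.68% in GFP-positive libraries.

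**Figure D2:**
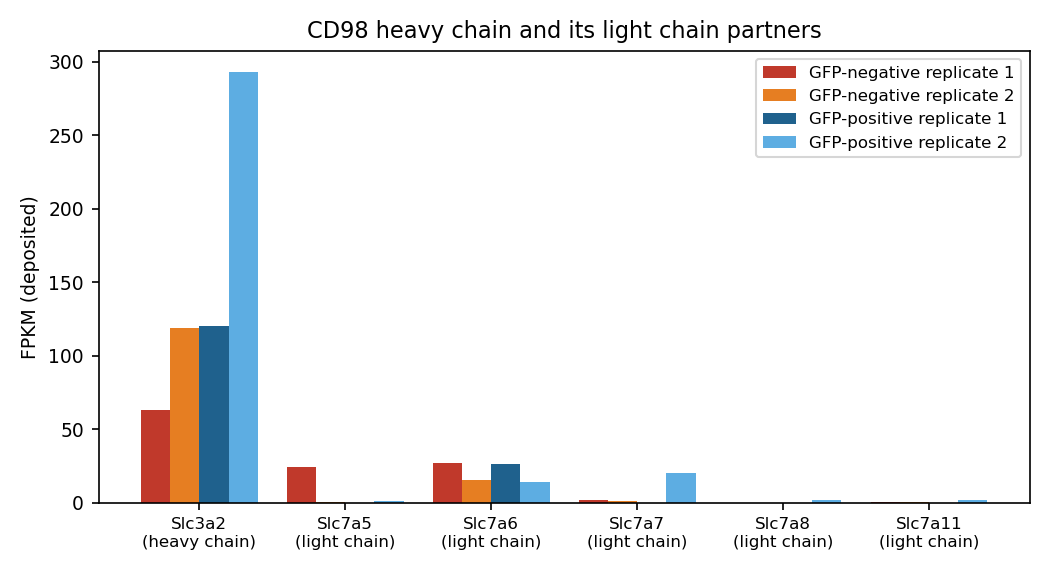
Deposited FPKM of the CD98 heavy chain Slc3a2 and 5 light chains, 1 bar per library. The heavy chain exceeds every light chain in all 4 libraries, and Slc7a5 is above 2 FPKM in GFP-negative replicate 1 alone, at 24.1 FPKM.

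Ordered by mean FPKM in the GFP-negative group, the genes ran from Slc3a2 at 91.0 ± 39.8 (SD, n = 2) through Atf4 at 60.2 ± 23.1, Ddit3 at 53.5 ± 33.1 and Asns at 42.0 ± 24.1 to Phgdh at 20.6 ± 17.4. Psat1, Chac1, Slc7a5, Trib3 and Sesn2 followed, the last at 2.80 ± 3.96 FPKM. Of the 9 neighbouring pairs, the ranges of the 2 libraries separated only for Trib3 and Sesn2. In the GFP-positive group Slc3a2 at 207 ± 122 FPKM and Atf4 at 99.5 ± 39.4 FPKM led, and only Atf4 and the next gene, Ddit3 at 35.7 ± 50.5 FPKM, did not overlap. Slc3a2 and Atf4 together took 41.1% and 53.7% of the FPKM of the 10 genes in GFP-negative libraries, against 100% and 74.5% in GFP-positive libraries.

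**Figure D3:**
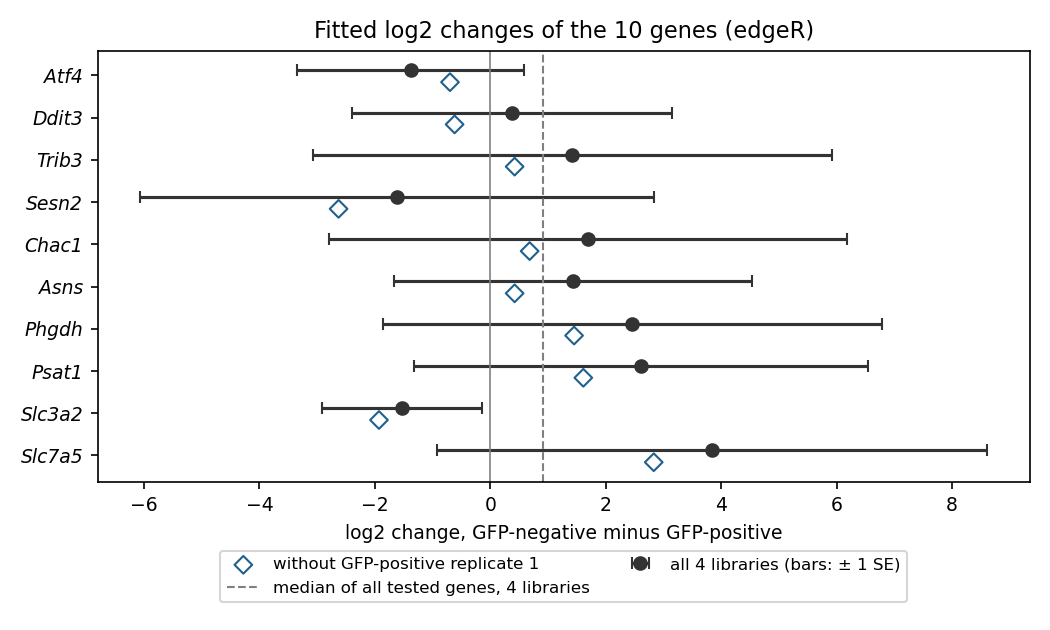
Log2 change (GFP-negative minus GFP-positive) of the 10 genes, with points and bars of ± 1 SE from all 4 libraries and open diamonds without GFP-positive replicate 1. Only the interval of Slc3a2 lies on one side of 0, at -1.53 ± 1.39, and 9 of the 10 diamonds lie to the left of their points, with that of Atf4 at -0.70 to the right.

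For these genes the GFP-negative libraries were not closer to each other than to GFP-positive replicate 2. Over the 9 genes with counts in both GFP-negative libraries and GFP-positive replicate 2, the median absolute log2 difference was 1.42 between the GFP-negative libraries. It was 1.35 between GFP-negative replicate 1 and GFP-positive replicate 2, and 0.57 between GFP-negative replicate 2 and GFP-positive replicate 2. Over the 13733 tested genes with counts in the same 3 libraries these values were 1.45, 1.22 and 0.94. With 2 libraries a group, an exact two-sided permutation test cannot go below 0.333 and was not used.

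The genes most like Atf4 over the 4 libraries were Soat1, Anxa4, Arpc2, Gm26377 and Rnf166, by Euclidean distance of centred log2 CPM (0.0909 to 0.261) among 4621 other genes with counts in every library. Of the other 9 genes described here, 7 had 0 counts in GFP-positive replicate 1 and so were not compared. Arpc2, for example, had 295 and 299 CPM in GFP-negative and 1297 and 498 CPM in GFP-positive libraries.

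Around the 10 genes, 11 lists of the pathway held 142 tested genes, of which edgeR called 0, with 1 at an unadjusted p below 0.05. In GFP-positive replicate 1, 48.6% of them were at 0 counts. Among eIF2 kinases, eIF2 and eIF2B, 0 of 13 passed and 8 had a fitted change above 0 (median log2 change 0.16, and 0.51 without GFP-positive replicate 1). Eif2ak1, the heme-regulated eIF2 kinase, had 91.1 and 17.8 CPM in GFP-negative libraries, against 500 and 38.2 CPM in GFP-positive libraries. Eif2b5, the catalytic subunit of eIF2B, had 101 and 75.7 CPM in GFP-negative libraries, against 573 and 86.0 CPM in GFP-positive libraries. In both genes GFP-positive replicate 1 alone was high. Eif2ak1 had a log2 change of -2.30 ± 2.30, and 0.50 without that library, and Eif2b5 of -1.90 ± 2.06, and 0.03 without it (edgeR adjusted p = 1.0 for each).

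Of the eIF2 phosphatase subunits and regulators, 0 of 7 passed (median -1.27, and 0.62 without GFP-positive replicate 1). Ppp1cb, a catalytic subunit of protein phosphatase 1, had 196 and 91.0 CPM in GFP-negative libraries, against 0.32 and 25.3 CPM in GFP-positive libraries, and its groups did not overlap. Dnajc3, a chaperone that inhibits eIF2 kinases, had 58.4 and 233 CPM in GFP-negative libraries, against 974 and 93.0 CPM in GFP-positive libraries, with GFP-positive replicate 1 standing alone above the rest.

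Among partner and related bZIP factors was Atf3, with the smallest p of the pathway genes. Of 9 genes 0 passed, with a median log2 change of -0.90 beside 0.91 for all genes, and -1.37 beside 0.29 without GFP-positive replicate 1. Atf3, a stress-induced repressor and target of ATF4, had 197 and 133 CPM in GFP-negative libraries, against 1621 and 874 CPM in GFP-positive libraries. Its groups did not overlap, and the log2 change was -2.92 ± 1.42 (edgeR unadjusted p = 0.0400, adjusted p = 1.0), or -2.41 with GFP-positive replicate 1 left out. Nfe2l2, the oxidative stress factor NRF2, had 53.0 and 44.3 CPM in GFP-negative libraries, against 489 and 311 CPM in GFP-positive libraries, again with no overlap. Its log2 change was -3.04 ± 2.11 (edgeR adjusted p = 1.0).

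Of the other known ATF4 targets, 14 of 17 listed were in the table, 0 passed and 8 had a fitted change above 0 (median 0.15, and -0.39 without GFP-positive replicate 1). Gdf15, a secreted stress cytokine, had 11.6 and 82.6 CPM in GFP-negative libraries, against 700.3 and 547 CPM in GFP-positive libraries. Both GFP-negative libraries lay well below, with a log2 change of -3.73 ± 1.92 (edgeR unadjusted p = 0.0518, adjusted p = 1.0), or -3.54 with GFP-positive replicate 1 left out. The macrophage markers ran the same way, with 10 of 11 below in both GFP-negative libraries and 3 called lower. So did the erythroid markers, with 5 of 6 below and 2 called lower, and 2 of 4 hepatocyte markers, with 3 called lower. In each of the other marker lists 0 lay below. The part of these cell types in Atf3, Nfe2l2 and Gdf15, and in Atf4 and Slc3a2, was not tested.

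Lists of amino acid supply mostly had fitted changes above 0, as 68.1% of all genes did, without a call. Of the serine, glycine and folate enzymes 0 of 11 passed and 10 had a fitted change above 0 (median 1.70, and 0.82 beside 0.29 for all genes without GFP-positive replicate 1). Aldh1l2, the mitochondrial formyltetrahydrofolate dehydrogenase, had 8.51 and 3.75 CPM in GFP-negative libraries, against 0 and 0.0628 CPM in GFP-positive libraries. The groups did not overlap, and its log2 change was 7.49 ± 5.72 (edgeR adjusted p = 1.0). Its cytosolic relative Aldh1l1 was high in a single library, at 8.27 and 3.72 CPM in GFP-negative and 251 and 4.03 CPM in GFP-positive libraries. Of the cytosolic aminoacyl-tRNA synthetases and the tRNA exporter Xpot, 0 of 22 passed and 20 had a fitted change above 0 (median 1.45, and 0.63 without GFP-positive replicate 1), and 13 were at 0 counts in that library. Kars, the lysyl-tRNA synthetase, had 224 and 55.9 CPM in GFP-negative libraries, against 0 and 56.5 CPM in GFP-positive libraries. Iars, the isoleucyl-tRNA synthetase, had 73.1 and 4.22 CPM in GFP-negative libraries, against 0 and 4.91 CPM in GFP-positive libraries. In both genes GFP-negative replicate 1 alone was high, as for Slc7a5.

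Amino acid transporters (0 of 14 passed, median 0.37, and -0.31 without GFP-positive replicate 1) and other amino acid synthesis enzymes (0 of 13, median -0.19, and 0.39 without that library) were divided. Bcat1, which transfers the amino group of branched-chain amino acids, had 84.9 and 4.72 CPM in GFP-negative libraries, against 0 and 2.67 CPM in GFP-positive libraries. Got1, the cytosolic aspartate aminotransferase, had 18 and 73.5 CPM in GFP-negative libraries, against 578 and 243 CPM in GFP-positive libraries, with groups that did not overlap. Its log2 change was -3.16 ± 2.11 (edgeR adjusted p = 1.0). The unfolded protein response list had 0 of 19 called (median 0.26, and 0.16 without GFP-positive replicate 1). Its Sdf2l1, a chaperone cofactor, had 39.7 and 40.5 CPM in GFP-negative libraries, against 461 and 107 CPM in GFP-positive libraries. Sestrin, GATOR and Rag genes had 0 of 18 called and 16 above 0 (median 1.26, and 0.25 without GFP-positive replicate 1). Seh1l, a GATOR2 subunit that is also a nucleoporin, had 187 and 46.8 CPM in GFP-negative libraries, against 0 and 36.2 CPM in GFP-positive libraries. Of the glutathione genes 0 of 7 passed (median 0.86, and 0.12 without GFP-positive replicate 1, where 5 of them were at 0 counts). Chac2, the relative of Chac1, had 9.07 and 67.2 CPM in GFP-negative libraries, against 0 and 24.7 CPM in GFP-positive libraries, so that GFP-negative replicate 2 was the higher one, the reverse of Chac1.

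**Figure D4:**
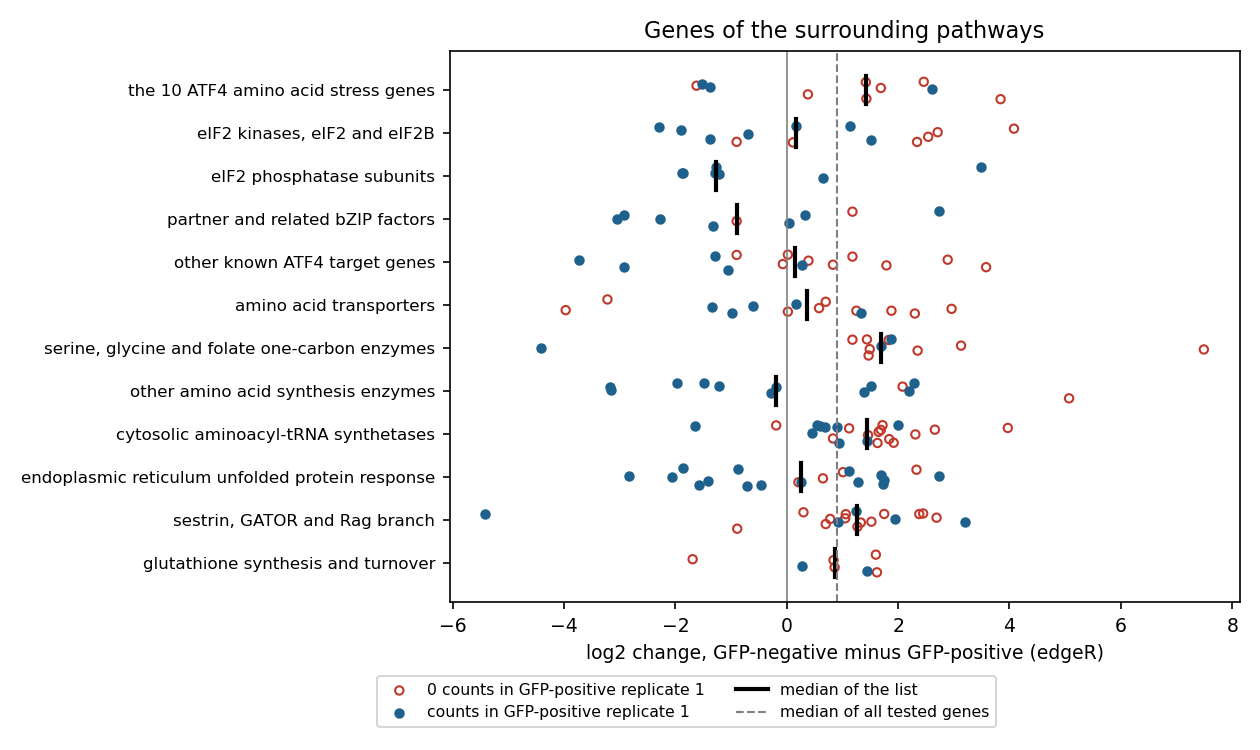
Log2 change (GFP-negative minus GFP-positive) of each tested gene of the 10 and of the 11 surrounding lists, with the list median as a bar and the median of all tested genes, 0.91, as a dashed line. Open points are genes at 0 counts in GFP-positive replicate 1, and the list medians run from -1.27 for phosphatase subunits to 1.70 for one-carbon enzymes.

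The number of the 10 genes called turned on a single library. With GFP-positive replicate 2 left out, the GFP-positive group was replicate 1 alone, and edgeR called 7 of 10 higher in the GFP-negative group, beside 42.7% of 16804 genes (45.2% in either direction). The lone GFP-positive library is then assumed to vary like the GFP-negative ones. The 7 were Ddit3, Asns, Slc7a5, Trib3, Chac1, Phgdh and Psat1, all at 0 to 4 counts in that library, and Sesn2, also at 0 there, had an edgeR adjusted p of 0.0568. No member was called without GFP-positive replicate 1 (0.00587% of genes called), GFP-negative replicate 1 (0.139%) or GFP-negative replicate 2 (0.351%).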

How the data were processed

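Per the labels' protocols, SMARTer cDNA was primed at the poly(A) tail of small RNA amounts, PCR-amplified, fragmented enzymatically and read from both ends. The description names no strand marking. Within the positions given above, no exon of the 10 genes overlaps an exon under another gene symbol in GENCODE M21. Entries that share a symbol were not compared. The authors deposited, per the file headers, whole-number counts and FPKM of every gene symbol. The submitters' processing notes name mm10, HISAT2 2.2.1, StringTie 2.1.6, cutadapt 1.9, edgeR and DESeq2. Which program counted, and how shared reads were handled, is not given in the sources used here.

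The deposited counts were fitted with edgeR 4.0.16 (R 4.3.3): filterByExpr (minimum count 10, leaving 16301 genes), TMM scaling, glmQLFit and glmQLFTest with the group as the only term, and Benjamini-Hochberg adjustment over all genes tested. Positive log2 changes are higher in GFP-negative libraries. SEs come from the fold change and its F statistic (absolute log2 change over root F), and rest on a spread moderated across genes (common biological coefficient of variation 1.92). A library at 0 counts was given a limit of 3 counts for folds. Such limits cover counting error only, and reads without molecular identifiers are not independent molecules. DESeq2 1.42.0 and limma 3.58.1 were alternatives. The fit was tested on simulated counts with a smaller spread between libraries than these data have. FPKM served to compare levels between genes.

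The members, gene lists and tests were chosen with earlier results of these data known. Named pathway genes were the 2 with the smallest p in each list (none was called) at a group mean of 5 CPM or more; Rptor and Ggt7 are given among the other observations. Psph and the light chains Slc7a6 and Slc7a11 were added for their roles with values in view, as were the defining markers Chga and Chgb. No label pairs the replicate numbers, so libraries were not paired. Across groups, replicate 1 minus replicate 2 correlated at -0.07 over genes. With 65.8% of symbols at 0 counts in GFP-positive replicate 1, that value cannot tell whether the libraries were paired. RefSeq promoters were matched by symbol.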

Additional observations from a re-analysis of the deposited data

How the results depend on the processing

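Across 17 alternatives, Atf4 and Slc3a2 stayed lower and Psat1 higher in GFP-negative libraries, and Asns, Slc7a5, Trib3, Chac1 and Phgdh stayed higher in the 16 alternatives that tested them. The alternative with an adjusted p threshold of 0.1 kept the same fit, so it could not change a direction. Sizes differed: upper quartile scaling gave -7.81 for Atf4 and -6.87 for Slc3a2, against -1.38 and -1.53 in the main fit. That scaling moved Slc7a6 alike, to -7.04 against -0.60. No member was called except without GFP-positive replicate 2, where 7 were. Left-out libraries moved the members' median log2 change between 0.42 and 13.33 and the number of genes called between 1 and 7601, the low value without GFP-positive replicate 1 and the high one without replicate 2. The members' median ranged from 1.21 to 5.79 under the other alternatives that tested all 10 genes. With only genes counted in all 4 libraries it was -1.30 over the 3 members left, and 5 of 5492 genes were called. Those members were Atf4 at -1.30, Slc3a2 at -1.48 and Psat1 at 2.68. This setting drops the 7 members at 0 counts in GFP-positive replicate 1, so its median is not one of the same genes. DESeq2's Wald test and limma on log2 FPKM with a pseudocount of 0.1 each called 42 genes, limma-voom 4 and upper quartile scaling 0, with 1150 at an unadjusted p below 0.05; the cause was not tested. With the replicate number as a block, 21 genes and 0 members were called and the members' median was 5.78 (3.92 for all genes).

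Changed signs were as follows, and the cause was not tested. Without GFP-positive replicate 1 the log2 change was -0.62 for Ddit3, 0.50 for Eif2ak1, 0.03 for Eif2b5, 0.64 for Dnajc3, 0.57 for Aldh1l1 and 0.12 for Slc7a6. Without GFP-positive replicate 2 it was 12.03 for Sesn2, 7.90 for Slc7a8, 11.34 for Slc7a7 and 5.97 for Slc7a11. Without GFP-negative replicate 2 it was -1 for Ddit3 and -0.46 for Chac2. The replicate block gave 0.52 for Slc7a8, 2.43 for Slc7a7 and 1.96 for Slc7a11, limma-voom 0.33, 2.54 and 2.23 for the same genes, and a pseudocount of 0.1 gave 0.10 for Slc7a7 and 0.57 for Slc7a11. Slc7a6 stood at 0.07 with library totals and at 0.07, 0.07 and 0.06 with FPKM pseudocounts of 1, 0.1 and 5. Over the 4 left-out libraries these genes ranged from -13.28 to 12.03 for Sesn2, -1 to 15.80 for Ddit3, -3.92 to 0.50 for Eif2ak1, -2.70 to 0.03 for Eif2b5, -3.08 to 0.64 for Dnajc3, -5.39 to 0.57 for Aldh1l1 and -0.46 to 14.43 for Chac2. For the light chains they ranged from -1.09 to 0.12 for Slc7a6, -4.22 to 11.34 for Slc7a7, -4.98 to 7.90 for Slc7a8 and -1.98 to 5.97 for Slc7a11.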

Other observations

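Rptor, the mTORC1 scaffold raptor, had 5.01 and 1.01 CPM in GFP-negative libraries, against 252 and 3.70 CPM in GFP-positive libraries. It was high in GFP-positive replicate 1 alone, as Aldh1l1 and Eif2ak1 were, and its log2 change was -5.41 ± 3.75 with all 4 libraries (edgeR adjusted p = 1.0) and -0.31 without that library. Ggt7, a relative of the gamma-glutamyl transferases, had 75.1 and 29.6 CPM in GFP-negative libraries, against 0 and 34.5 CPM in GFP-positive libraries.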
